A study of Mus musculus with 12 samples.

Results

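Transcripts that mark B cells and plasma cells, and those of the antibody chains these cells make, were followed through infarcted mouse heart muscle. The 9 genes were picked by symbol with earlier results of these data in view, and all 9 were found among the 56647 gene rows that have a value in every library. They are the heavy chain genes Ighm (ENSMUSG00000076617) and Ighd (ENSMUSG00000104213), the kappa light chain gene Igkc (ENSMUSG00000076609), the surface genes Cd79a, Cd79b, Ms4a1 and Ly6d, and the secretion genes Jchain and Mzb1. The mice were wild type. They fell into 3 sham vehicle mice, 3 mice with ligation of the left coronary artery, which causes myocardial infarction (MI), and 4 mice with the ligation and NECA delivered locally into the infarcted muscle. NECA is N-ethylcarboxamidoadenosine, an analogue of adenosine that activates adenosine receptors. The labels give no vehicle for the MI mice, so NECA and its injection cannot be told apart if those mice received none. Strain, age, time after ligation and the part of the heart taken are not stated in the sources used here.

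B cells carry an antibody on their surface as an antigen receptor, made of heavy and light chains and joined to the signalling partners encoded by Cd79a and Cd79b. When a B cell becomes a plasma cell it makes very large amounts of antibody RNA and lowers several of its surface genes, so antibody transcripts weigh plasma cells more heavily than other B cells. In the mouse, B cells of the pericardial and other body cavities include the B-1 type, which makes IgM with few mutations, and B cells also sit in the fat and lymphoid clusters around the heart and enter infarcted muscle.

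Each antibody chain begins with a variable (V) segment, joined during B cell development, and the segment in use differs between B cell clones. The segments below were chosen after their values were seen, because their counts show some of the antibody genes the libraries held. For each, the last 30 bases of the germline segment are given 5′ to 3′ from the GENCODE M21 transcripts, with the codon of the conserved cysteine that ends the V framework in capitals. The heavy chain segments lie on chromosome 12 and the kappa segments on chromosome 6.
Ighv11-2: ggacacagccacgtatttcTGTatgagata
Ighv5-16: ggacacagccacgtattacTGTgcaagaga
Igkv14-126: ttacTGTctacagcatggtgagagccctcc
Igkv5-39: ttacTGTcaaaatggtcacagctttcctcc
Igkv1-117: ttacTGCtttcaaggttcacatgttcctcc
Igkv1-110: tttcTGCtctcaaagtacacatgttcctcc

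The heavy segments end 8 bases after the cysteine codon and the kappa segments 23 bases after it, so the kappa germline segments carry more of the antigen-contacting loop. Ighv11-2 is 98.9% identical to Ighv11-1 over 353 aligned bases and shares all of its last 30 bases, so the deposited split of 138 counts to Ighv11-2 and 1 to Ighv11-1 is uncertain. Igkv1-117 and Igkv1-110 are 97.5% identical and differ at 4 of the last 30 bases, so their counts are uncertain in the same way. Igkv14-126 is 91.6% identical to its nearest segment, Igkv14-111, which had 8 counts against 328.

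Levels are counts per 1e6 counts of a library (CPM). The libraries read the 3′ ends of transcripts. MI mice 2 and 3 each had a deep 1st library of 30.7 and 27.1 M counts (M being 1e6) and a 2nd library, and the other libraries and both 2nd ones held 0.96 to 1.33 M, so that 1 count there was worth 0.752 to 1.04 CPM. The depth batch of 1st libraries holds MI mice only. Values of a group are over mice, with the libraries of a mouse summed and scaled by TMM, a scaling on the bulk of genes. In whole tissue, fewer B cells and less RNA per B cell cannot be told apart. The labelled heart muscle was checked with 8 cardiomyocyte genes, all of which were detected in every library of matched depth. Their detection does not show which part of the heart was taken. Sham vehicle mouse 3 stood apart from the other sham vehicle mice in atrial, fat and lymphocyte transcripts, and results that rest on it are given with and without it.

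Ighm and Igkc were the most abundant of the 9 and ranged widely between mice of the same group. Ighm, the constant region of IgM, stood at 8.58, 4.51 and 136 CPM in sham vehicle mice 1, 2 and 3. In MI mouse 1 it stood at 741 CPM, in MI mouse 2 at 136 and 161 CPM in the 1st and 2nd library, and in MI mouse 3 at 26.3 and 32.3 CPM. NECA-treated mice 1 to 4 had 352, 87.0, 6.85 and 206 CPM. Sham vehicle mouse 3 thus lay among the MI mice, and NECA-treated mouse 3 lay between the other 2 sham vehicle mice. The highest mouse exceeded the lowest 25.9-fold in the sham vehicle group, 32.8-fold in the MI group and 51.2-fold in the NECA-treated group.

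Igkc, the constant region of the kappa light chain, was high and low in much the same mice. It had no count in sham vehicle mice 1 and 2 and 48.7 CPM in mouse 3. The MI libraries held 411 CPM in mouse 1, 99.1 and 70.0 CPM in mouse 2, and 15.4 and 16.7 CPM in mouse 3. NECA-treated mice had 251, 53.7, 0.856 and 123 CPM, the third of these being a single count. The groups overlapped, because sham vehicle mouse 3 exceeded MI mouse 3 and NECA-treated mouse 3. Without sham vehicle mouse 3 no Igkc count is left in the sham vehicle group, where 3 counts over both remaining libraries would be 1.20 CPM, which is above NECA-treated mouse 3 and below every other infarcted mouse.

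Jchain encodes the joining chain that links IgM into its secreted polymer. It was at 0.858, 0 and 17.3 CPM in sham vehicle mice 1 to 3. MI mouse 1 had 72.0 CPM, MI mouse 2 had 22.2 and 13.4 CPM, and MI mouse 3 had 3.24 and 4.17 CPM. NECA-treated mice had 33.4, 8.95, 0 and 20.7 CPM. The mice high for Ighm were high for Jchain too, and the 3 groups again overlapped. Ighd, the constant region of IgD carried by mature naive B cells, was detected in every library at 0.752 to 12.7 CPM, with NECA-treated mouse 1 (12.7 CPM) and MI mouse 1 (10.7 CPM) above the rest, of which the highest was NECA-treated mouse 4 at 3.77 CPM.

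**Figure D1:**
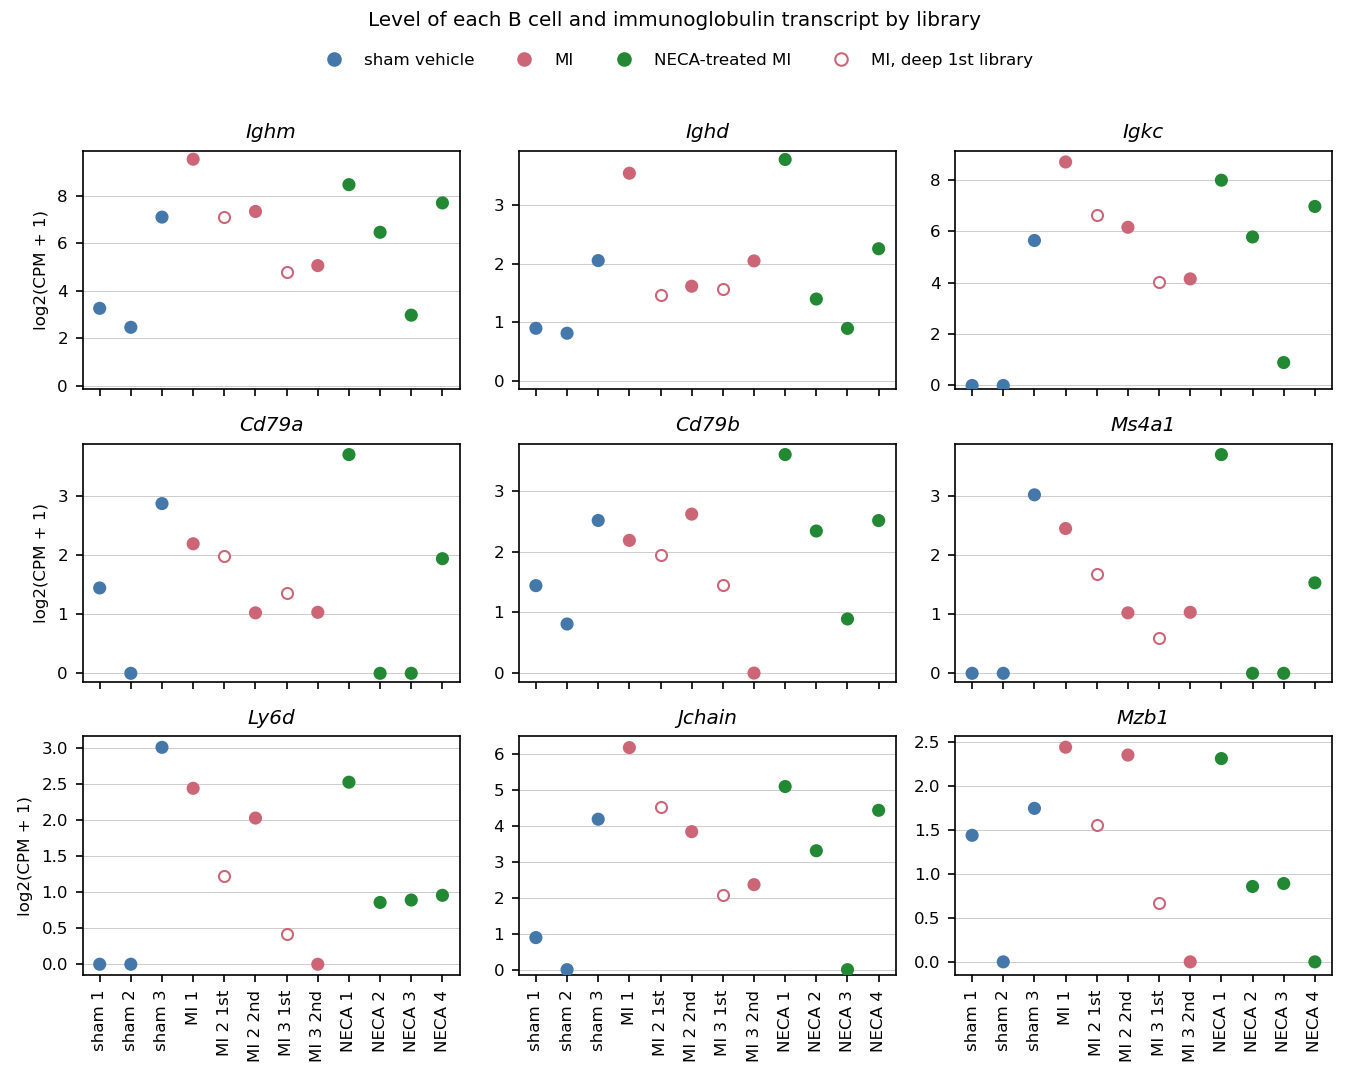
Level of each of the 9 transcripts in each library, as log2(CPM + 1), with a scale of its own in every panel. Open circles are the deep 1st libraries of MI mice 2 and 3. Sham vehicle mouse 3, MI mouse 1 and NECA-treated mouse 1 are high in nearly every panel, and sham vehicle mice 1 and 2 and NECA-treated mouse 3 are low.

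Transcripts of the B cell surface were scarce. Cd79a and Cd79b encode the signalling pair of the B cell receptor. Cd79a stood at 1.72, 0 and 6.29 CPM in sham vehicle mice, at 3.55 CPM in MI mouse 1, at 2.96 and 1.03 CPM in the libraries of MI mouse 2, and at 1.55 and 1.04 CPM in those of MI mouse 3. NECA-treated mice had 11.9, 0, 0 and 2.83 CPM. NECA-treated mouse 1 was above every other library for Cd79a, with 15 counts behind its value. Cd79b was detected in 11 of the 12 libraries, with 11.1 CPM in NECA-treated mouse 1 and at most 5.15 CPM in any other library.

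Ms4a1, the CD20 surface protein of B cells before the plasma cell stage, had no count in sham vehicle mice 1 and 2 nor in NECA-treated mice 2 and 3. It was at 7.07 CPM in sham vehicle mouse 3, 4.44 CPM in MI mouse 1, 11.9 CPM in NECA-treated mouse 1, and at most 2.18 CPM in the other libraries. Ly6d, a surface protein that appears early in B cell development and that some epithelia also make, was highest in sham vehicle mouse 3 at 7.07 CPM, against 4.44 CPM in MI mouse 1 and 4.77 CPM in NECA-treated mouse 1. Mzb1, a folding helper in the endoplasmic reticulum of antibody-secreting B cells, ran from 0 to 4.44 CPM and was the least regular of the 9. At these levels a count of 0 in a library of matched depth allows up to 2.26 to 3.13 CPM (3 counts), which covers counting error only, so most of the surface transcripts could not be ordered between mice.

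Per unit of transcript length, on the deposited TPM scale, the order of the median levels over the 12 libraries was Igkc at 145 TPM, Ighm at 72.2 TPM, Jchain at 8.27 TPM, Cd79b at 2.73 TPM, Mzb1 at 2.20 TPM, Ly6d at 1.5 TPM, Ighd at 1.30 TPM, Cd79a at 1.17 TPM and Ms4a1 at 0.395 TPM. Across libraries the ranges of all 9 overlapped. Among the 6 genes from Cd79b downward the medians lay close together beside ranges that began at 0 or 0.400 TPM, so neighbours in that order do not differ beyond their spread. TPM and counts differ for some low genes, as in NECA-treated mouse 4, where Mzb1 had no count and 6.32 TPM. Length scaling raises short transcripts, which matters here because reads came from 3′ ends.

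The 9 transcripts moved together across mice. With the libraries of a mouse summed, 1 mouse in each group was the highest for all 9 of them: sham vehicle mouse 3, MI mouse 1 and NECA-treated mouse 1. In single libraries Cd79b was higher in the 2nd library of MI mouse 2 (5.15 CPM) than in MI mouse 1 (3.55 CPM), and on the TPM scale Mzb1 was higher in NECA-treated mouse 4 (6.32 TPM) than in NECA-treated mouse 1 (5.5 TPM). The number of the 9 with at least 1 count was 6, 3 and 9 in sham vehicle mice, 9 in MI mice 1 and 2, and 9, 7, 6 and 8 in NECA-treated mice. In MI mouse 3 it was 9 in the deep library and 6 in the 2nd. Over the 10 libraries of matched depth, which share a protocol but differ in depth, the log2(CPM + 1) of Jchain and of Ighm correlated best with the mean of the other 8 (Pearson r = 0.962 and 0.96), followed by Igkc (0.911) and Ighd (0.886). Mzb1 had the lowest value, 0.616. These correlations are descriptions of genes chosen together.

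The mean of log2(CPM + 1) over the 9 genes is called the B cell score. It was 1.70 ± 1.58 in sham vehicle mice (SD, n = 3), 3.14 ± 1.34 in MI mice (n = 3) and 2.73 ± 1.57 in NECA-treated mice (n = 4). Single mice scored 1.12, 0.48 and 3.49 in the sham vehicle group, 4.41, 3.25 and 1.75 in the MI group, and 4.58, 2.30, 0.83 and 3.19 in the NECA-treated group. The spread within a group, 3.01, 2.67 and 3.75 from lowest to highest, was larger than any difference between group means. MI exceeded sham vehicle by 1.44 with a pooled SD of 1.47, NECA-treated exceeded sham vehicle by 1.03 with a pooled SD of 1.58, and NECA-treated lay below MI with a difference of -0.41 and a pooled SD of 1.48. Without sham vehicle mouse 3 the first of these was 2.34 and the second 1.93. Without MI mouse 1 the first was 0.81 and the third 0.23, and without NECA-treated mouse 3 the third was 0.22. Leaving out sham vehicle mouse 2 gave 0.84 and 0.42 for the differences from sham vehicle, leaving out NECA-treated mouse 1 gave 0.41 for the second and -1.03 for the third, and leaving out MI mouse 3 gave -1.11 for the third. Leaving out NECA-treated mouse 2 gave -0.27 for the third, and leaving out NECA-treated mouse 3 gave 1.66 for the second.

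Between groups, with all mice included, no transcript of the 9 separated the mice, and no difference was detectable beside the spread between them. Comparing MI with sham vehicle asks what follows ligation, and comparing NECA-treated with MI asks what NECA adds. The groups overlapped for all 9 genes in all 3 comparisons, against non-overlap of 15.2% of tested genes for MI against sham vehicle, 9.12% for NECA-treated MI against MI and 8.52% when NECA-treated mice were set against sham vehicle mice. Without sham vehicle mouse 3, MI mice lay above the remaining sham vehicle mice for Ighm (22.8 CPM or more against 9.82 or less, TMM-scaled), Igkc, Jchain and Ighd. Cd79a, Cd79b and Mzb1 still overlapped. Ms4a1 and Ly6d had no count in those sham vehicle mice, but MI mouse 3 (0.459 and 0.275 CPM) was below their floor of 1.20 CPM. That mouse was left out with its values known, and the share of all genes separated without it was not computed. Only Ighm, Igkc and Jchain passed the filter on low counts among the 9, and a gene can pass through the group where it is high, so these 3 are not read as standing for the rest. In edgeR's quasi-likelihood fit of 9688 genes with Benjamini-Hochberg adjustment, 0 of the 3 passed an adjusted p of 0.05 in any comparison, and 0 had an unadjusted p under 0.05. The share of all tested genes called was 0.155% (15 genes) for MI against sham vehicle, 0.0103% (1 gene) for NECA-treated MI against MI, and 0.0% between NECA-treated and sham vehicle mice, where 411 genes had an unadjusted p under 0.05 and DESeq2 called 4. The 15 calls fell to 0 without sham vehicle mouse 1 or 2, to 3 without NECA-treated mouse 1, 2 or 3, and to 5 without MI mouse 3 or NECA-treated mouse 4, and rose to 40 without sham vehicle mouse 3, 67 without MI mouse 2 and 310 without MI mouse 1. The single call of the second comparison became 121 once MI mouse 1 was dropped, and 0 once any other MI or NECA-treated mouse was dropped.

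As a description, the log2 fold change of Ighm between MI and sham vehicle mice was 2.62 ± 1.75 (SE, adjusted p = 0.539 in edgeR), with group means of 307 ± 385 and 47.3 ± 69.2 CPM (SD, n = 3 each). Igkc differed by 3.39 ± 1.94 (adjusted p = 0.471) and Jchain by 2.20 ± 1.70 (adjusted p = 0.601). In the same fit, NECA-treated mice (Ighm 166 ± 153 CPM, n = 4) had values of -0.85 ± 1.49 for Ighm, -0.65 ± 1.51 for Igkc and -0.83 ± 1.37 for Jchain against MI. Without MI mouse 1 these 3 values turned positive, at 0.91, 0.83 and 0.23, and without NECA-treated mouse 1 they were -1.57, -1.52 and -1.56. With the 2nd libraries alone, which lie within the batch of matched depth, Ighm had 2.69, Igkc 3.36 and Jchain 2.29 between MI and sham vehicle mice. The value for Ighm was 5.36 without sham vehicle mouse 3 and 0.85 without MI mouse 1. Jchain had 5.92 and 1.15 without those mice, and Igkc had 1.91 without MI mouse 1.

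With all mice included, the 6 genes below the filter differed between MI and sham vehicle mice by less than their spread. On the log2(CPM + 1) scale, which understates the change of low genes, MI exceeded sham vehicle by 0.91 for Ighd, 0.38 for Cd79a, 0.24 for Cd79b, 0.61 for Ms4a1, 0.41 for Ly6d and 0.49 for Mzb1. The pooled SDs of these 6 were 0.94, 1.06, 0.66, 1.38, 1.41 and 0.94, so each difference was smaller than 1 SD. Leaving out sham vehicle mouse 2 turned the sign for Cd79a (-0.34), Cd79b (-0.14), Ly6d (-0.08) and Mzb1 (-0.05) and lowered Ms4a1 to 0.12, as did leaving out sham vehicle mouse 1 for Ly6d (-0.08) and Ms4a1 (0.12). Leaving out sham vehicle mouse 3 raised Ighd to 1.26, Cd79a to 1.05, Cd79b to 0.64 and Ms4a1 to 1.59. Of these, Ighd and Ms4a1 then exceeded the pooled SDs given above, which include that mouse. Leaving out MI mouse 1 gave -0.13 for Ly6d and 0.23 for Ighd, and Cd79a had -0.02 with the 2nd libraries alone. The mean CPM of Ly6d had the other sign, 2.10 in MI and 2.20 in sham vehicle mice. On the log2(CPM + 1) scale NECA-treated mice were above MI mice for 1 of the 9 genes, Cd79b, by 0.49 with a pooled SD of 0.92. The mean CPM of Cd79a (3.75 against 2.71) and of Ms4a1 (3.50 against 2.44) had the other sign than on that scale, with NECA-treated mouse 1 at 12 CPM in both. The 3 comparisons share mice, so their directions are not separate observations.

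The repeated libraries give the technical spread. In MI mouse 3, the ratio of the 2nd to the 1st library had an exact 95% interval that held 1 for 9 of the 9 genes, and in MI mouse 2 for 8 of the 9. The exception was Igkc in MI mouse 2, with a ratio of 0.706 (0.547 to 0.898). For Ighm the ratios were 1.18 (0.997 to 1.38) in MI mouse 2 and 1.23 (0.83 to 1.76) in MI mouse 3. The repeat of a mouse thus moved Ighm by far less than the change from mouse to mouse.

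The balance of surface against antibody transcripts differed between mice. It is the share of Cd79a, Cd79b, Ms4a1 and Ly6d in the counts of these genes plus Ighm, Igkc and Jchain, and it compares mixtures between libraries, not levels between genes. In MI mouse 1 the surface genes took 1.29% (exact 95% interval 0.766 to 2.03, 18 of 1396 counts). In MI mouse 2 they took 3.49% (3.11 to 3.92) in the 1st library and 4.05% (1.96 to 7.32) in the 2nd, and in MI mouse 3 they took 8.41% (6.98 to 10) in the 1st library and 3.77% (0.46 to 13.0) in the 2nd. NECA-treated mice 1, 2 and 4 had 5.88% (4.39 to 7.67), 3.16% (1.17 to 6.75) and 2.87% (1.44 to 5.08). Sham vehicle mouse 3 had 11.1% (7.70 to 15.3). In the deepest library of each MI mouse the surface share was lower where B cell transcript was higher, in the order mouse 1, mouse 2, mouse 3, and these intervals did not overlap. At matched depth MI mouse 3 was not above MI mouse 2, and among NECA-treated mice 1, 2 and 4 the mouse with the most B cell transcript, mouse 1, had the highest share. Antibody counts enter both quantities. The libraries with 7 to 15 counts had wide intervals, of 7.79% to 55.1% in sham vehicle mouse 1, 0.361% to 57.9% in sham vehicle mouse 2 and 2.28% to 51.8% in NECA-treated mouse 3. Leaving out Jchain kept all 12 shares inside their intervals, but it could move them little. In MI mouse 1, for example, Jchain supplied 81 of 1378 antibody counts. Shares without Ly6d, which some epithelia also make, were not computed. Intervals cover counting error only, because PCR copies are not independent molecules.

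**Figure D2:**
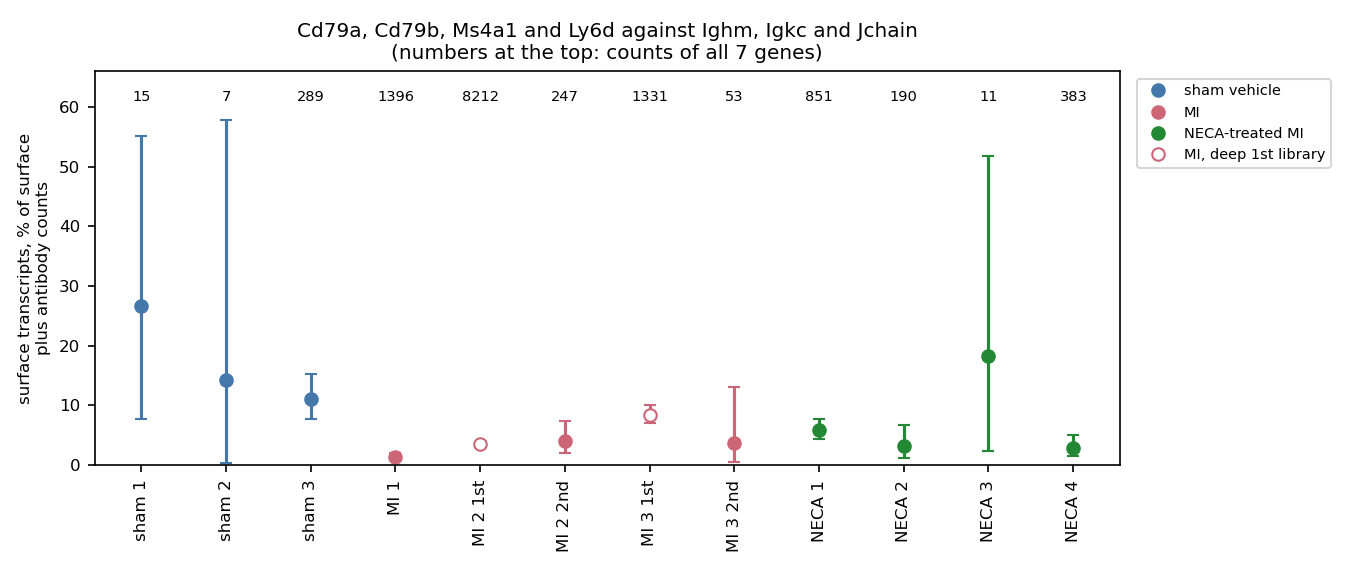
Share of surface transcripts in the counts of surface and antibody transcripts, by library, with exact 95% binomial intervals that cover counting error only. MI mouse 1 lies at 1.29% and sham vehicle mouse 3 at 11.1%, and libraries with few counts have wide bars.

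The mix of antibody classes also differed between mice. Ighm took the largest share of heavy chain constant region counts in every library, at 92.9% (91.0 to 94.5) in MI mouse 1 and 90.8% (90 to 91.7) in the 1st library of MI mouse 2. In the 1st library of MI mouse 3 it took 67.2%, and Igha, the IgA constant region of mucosal antibody, took 24.3% (21.8 to 27, 258 of 1061 counts), with 18.6% (8.39 to 33.4) in its 2nd library. Igha took 1.0% in MI mouse 1 and 2.45% in the 1st library of MI mouse 2. Among the mice with the most Igha, its level differed less than its share. It stood at 9.51 and 8.33 CPM in MI mouse 3, 8.0 CPM in MI mouse 1, 7.95 CPM in NECA-treated mouse 1 and 10.2 CPM in sham vehicle mouse 3. The Igha share in MI mouse 3 was thus high beside a low Ighm. The other mice had less Igha, down to 4.08 CPM scaled by TMM in the MI group and 0 in each of the other groups. In NECA-treated mouse 1, Ighg2b, the IgG2b constant region, took 12.7% (10 to 15.7, 71 of 560 counts), while in MI mouse 1 it took 3.12% and in the 1st library of MI mouse 2 0.152%. Ighg3, the IgG3 constant region, took 3.66% (3.14 to 4.24) in MI mouse 2 and had no count in either library of MI mouse 3, where 0 of 1061 counts allowed up to 0.347%. IgG genes are close copies of each other, so the split between them is uncertain.

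Light chain shares differed between libraries. Igkc took 26.4% to 42.1% of Ighm plus Igkc counts in the 9 libraries with over 40 such counts, and 0 of 10 and 0 of 6 counts in sham vehicle mice 1 and 2, whose intervals reached 30.8% and 45.9% and so run into that range. The 1st and 2nd library of MI mouse 2 gave 42.1% (40.9 to 43.2) and 30.4% (24.4 to 36.8). A repeat of the same mouse thus spanned much of the range. Lambda genes took 31.1% (21.8 to 41.7, 28 of 90 counts) of light chain constant counts in sham vehicle mouse 3. NECA-treated mouse 4 had 13.8% (8.76 to 20.3), while MI mouse 1 and the deep libraries of MI mice 2 and 3 had 3.54% (2.08 to 5.61), 4.75% (4.04 to 5.55) and 6.07% (4.04 to 8.71). At matched depth, the 2nd libraries of MI mice 2 and 3 had 10.5% (4.66 to 19.7) and 11.1% (1.38 to 34.7). Their intervals overlapped that of NECA-treated mouse 4. The lambda share was thus highest in the sham vehicle mouse that also held atrial and lymphocyte transcripts. Copies within the lambda cluster are near-identical, so only their sum is used.

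**Figure D3:**
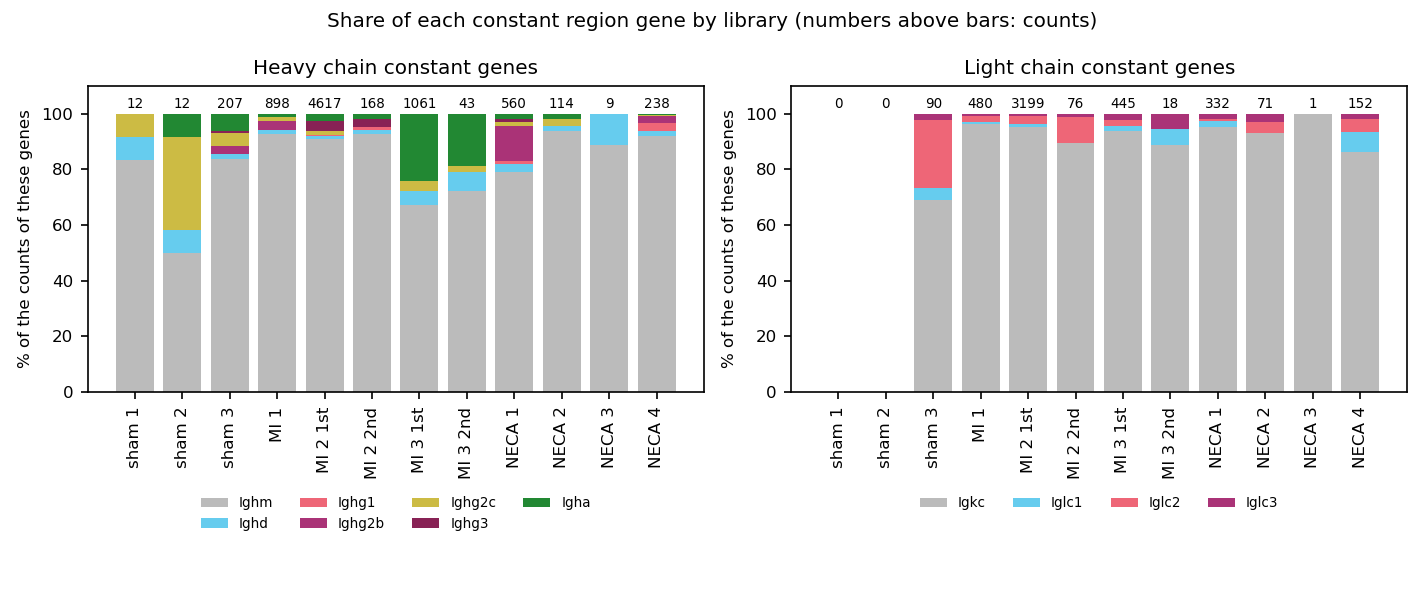
Share of each heavy chain gene (left) and light chain gene (right) in the constant region counts of a library, with the number of counts above each bar. Igha takes a larger share in MI mouse 3 (24.3% in the 1st library) than in MI mouse 1, as do Ighg2b in NECA-treated mouse 1 (12.7%) and lambda genes in sham vehicle mouse 3 (31.1% together).

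The V segments carried far fewer counts than the constant regions. An antibody chain begins with its V segment and the libraries read 3′ ends, so V counts do not measure the amount of antibody transcript. Of 348 segments in the tables, 130 had a count, with 1587 counts in all, in 9 of the 12 libraries, and none in sham vehicle mice 1 and 2 and NECA-treated mouse 3. Ighv11-2 was counted in 5 mice and was the most counted heavy segment in each of them. It took 19.5% of Ighv counts in MI mouse 1 (15 of 77), 44.6% (37.2 to 52.3, 79 of 177) in the 1st library of MI mouse 2, 31.8% in the 1st library of MI mouse 3 (14 of 44), 22.9% in NECA-treated mouse 1 (11 of 48) and 70.6% (44.0 to 89.7, 12 of 17) in NECA-treated mouse 4. In sham vehicle mouse 3 it had 0 of 14 counts, which allows up to 23.2%. These shares hold the uncertainty of Ighv11-1.

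Igkv14-126 was the most counted kappa segment in 4 mice. It took 38.5% of Igkv counts (237 of 615) in the 1st library of MI mouse 2 and 45.7% (16 of 35) in the 2nd, 15.5% (15 of 97) in the 1st library of MI mouse 3, 18.9% (25 of 132) in NECA-treated mouse 1 and 37.9% (11 of 29) in NECA-treated mouse 4. In sham vehicle mouse 3 it had 2 of 13 counts, or 15.4% (1.92 to 45.4). In MI mouse 1 it took 15.2% (21 of 138), behind Igkv1-110 with 34 of 138 counts. In the mouse, Ighv11-2 and Igkv14-126 together form a receptor for the lipid phosphatidylcholine that is common among B-1 cells of the body cavities. Whether the chains paired here cannot be read from bulk counts.

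Of the other segments printed above, 1 was counted in a single mouse. Ighv5-16, a heavy segment, had 32 counts over all libraries, all from MI mouse 2. Igkv5-39 had 84 counts in 4 mice and Igkv1-117 had 83 in 4 mice, the latter uncertain because of its near copy Igkv1-110. The V segment counts are too few in most libraries to compare groups, and no comparison was made.

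**Figure D4:**
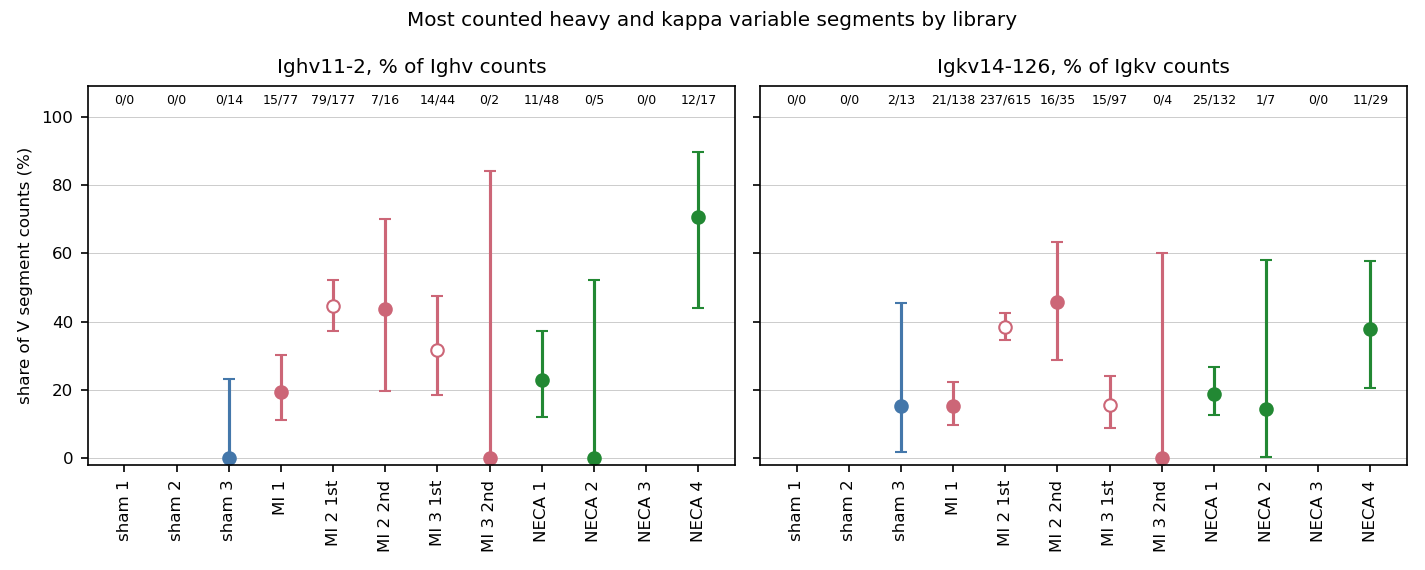
Share of Ighv11-2 in heavy V segment counts (left) and of Igkv14-126 in kappa V segment counts (right), by library, with exact 95% binomial intervals and the counts written above. Both segments are counted in MI and NECA-treated mice, Igkv14-126 has 2 counts in sham vehicle mouse 3, and libraries with no V counts have no point.

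Genes of the B cell and plasma cell programme outside the 9 gave few tested genes and no call. Of 19 co-receptor and signalling genes, 7 passed the filter and 0 were called in any comparison, with a median log2 fold change of 0.60 for MI against sham vehicle against 0.01 over all tested genes. Cd81, a tetraspanin that B cells and most other cell types make, had 0.39 ± 0.18 (SE, edgeR adjusted p = 0.329), and Fcgr2b, the inhibitory Fc receptor of B cells and macrophages, had 1.20 ± 0.36 (adjusted p = 0.146). Syk and Lyn, kinases of the receptor that myeloid cells also use, had -0.09 ± 0.28 and 0.60 ± 0.29 (adjusted p = 0.912 and 0.343). Macrophages and other blood cells also make most of these genes.

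Transcription factors, plasma cell genes and homing genes were likewise without a call in any of the 3 comparisons. Of the 14 transcription factor genes 5 were tested, with a median log2 fold change of 0.67 for MI against sham vehicle, led in level by Tcf3 (0.67 ± 0.25, SE, edgeR adjusted p = 0.23) and Foxo1 (-0.45 ± 0.22, adjusted p = 0.353). Bcl6, the factor of germinal centre B cells, had 1.28 ± 0.46 (adjusted p = 0.222), and Ebf1, an early B cell factor that stromal and fat cells also make, had 0.47 ± 0.31 (adjusted p = 0.508). Of 13 plasma cell genes 5 were tested, with a median of 0.27. Xbp1, the factor that drives antibody secretion and that muscle and other cells make, had 0.27 ± 0.23 (adjusted p = 0.622), and Sdc1, a surface proteoglycan of plasma cells and epithelia, had 1.60 ± 0.72 (adjusted p = 0.335). Of 15 chemoattraction and survival genes 3 were tested, with a median of 0.12, and Cxcl12, the chemokine that retains B cells in marrow, had 0.12 ± 0.22 (adjusted p = 0.844). Of 20 other B cell markers 3 were tested, with a median of 0.03, and of 10 other constant region genes 0 passed the filter.

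Other B cell genes did not share one pattern. The 4 that follow were picked with their values known. Pax5, which encodes the factor that fixes B cell identity, had 12.7 CPM in NECA-treated mouse 1 and 6.22 CPM in MI mouse 1, the mice with the highest B cell scores. It had 0.786 CPM, or 1 count, in sham vehicle mouse 3, and no count in sham vehicle mouse 1, NECA-treated mouse 3 and the 2nd library of MI mouse 3. Cd22, an inhibitory receptor of B cells, had 5.50 CPM in sham vehicle mouse 3, 1.78 CPM in MI mouse 1 and 11.9 CPM in NECA-treated mouse 1. Blk, a kinase of the B cell receptor, had 3.93, 0.888 and 4.77 CPM in those mice, and Spib, a B cell transcription factor, had 3.93, 0.888 and 7.95 CPM. Pax5 was thus higher in MI mouse 1 than in sham vehicle mouse 3, and Cd22, Blk and Spib were lower there, on 1 to 7 counts in these 2 mice.

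The genes whose pattern was most like the B cell score were largely not B cell genes. Over the 10 libraries of matched depth and 10311 genes of at least 5 CPM on average, the 8 highest Pearson correlations with the score belonged to Mturn (r = 0.929, Spearman rho = 0.939), C3 (0.905, 0.867), Clec3b (0.89, 0.842), Msln (0.889, 0.915), Muc16 (0.88, 0.855), Manea (0.877, 0.879), Igkv14-126 (0.876, 0.919) and Kyat1 (0.863, 0.855). Without the 2 libraries farthest from the median, r for these genes ranged from 0.789 (Kyat1) to 0.906 (Clec3b). Msln and Muc16 encode surface proteins of the mesothelium, the lining of the heart and body cavities, and C3 is the central complement protein. These are rankings of 10 points in which the mice differ in several tissues at once, and a chosen top of 10311 genes is high by selection.

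Transcripts of the outer lining, and some of those of fat, were high in the mice that were high for B cell transcripts. Msln was at 3.43, 9.77 and 66 CPM in sham vehicle mice, 69.3 CPM in MI mouse 1, 16.7 and 19.6 CPM in MI mouse 2, 24.4 and 18.8 CPM in MI mouse 3, and 57.2, 26.0, 2.57 and 42.4 CPM in NECA-treated mice. Adipoq, a hormone of fat cells, was at 108 CPM in sham vehicle mouse 3, 23.1 CPM in MI mouse 1, 17.5 and 21.1 CPM in NECA-treated mice 1 and 2, and 0 in sham vehicle mice 1 and 2 and NECA-treated mice 3 and 4. Scaled by TMM, MI mice ranged from 0.245 to 23.2 CPM. NECA-treated mouse 4 thus had 206 CPM of Ighm with no Adipoq. Adipoq was chosen after its values were seen, and its Spearman rho with the score was 0.718. Of the fat genes of highest mean CPM, Car3 and Cfd had rho of 0.766 and 0.706, but Pnpla2 and Fabp4 had 0.273 and 0.152. The summed fat markers were higher in NECA-treated mouse 2 (1208 CPM) than in NECA-treated mouse 1 (1082 CPM), which had the higher score. Over the matched-depth libraries the 12 fat cell markers summed to 624.3 to 2255 CPM with 4 to 12 detected in sham vehicle mice, 871.0 to 1198 CPM with 5 to 10 detected in MI mice, and 888.1 to 1208 CPM with 4 to 11 detected in NECA-treated mice. The part of lining and fat in the B cell values was not tested.

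Macrophage and red cell markers had other orders. Lyz2, a lysozyme of macrophages, was highest in MI mouse 3 at 582 and 574 CPM, the MI mouse with the lowest B cell score, and its correlation with the score over the 10 libraries was 0.299. The 16 macrophage markers reached 1363 CPM together in MI mouse 3 (2nd library), against 634.3 CPM in MI mouse 1. The red cell markers, a measure of blood left in the tissue, summed to 731.1 CPM in MI mouse 1 and 922.4 CPM in NECA-treated mouse 1, the mice with the highest scores. They summed to 1108, 1659 and 3682 CPM in the sham vehicle mice. MI mouse 2, with a score of 3.25, had 3989 and 2593 CPM. NECA-treated mouse 3, with a score of 0.83, had 923.3 CPM, so the red cell sum did not run opposite to the score throughout. The T and NK cell markers summed to 91.2 CPM in sham vehicle mouse 3, with 17 of 20 detected, against 10.3 to 37.5 CPM in the other libraries. Rag1 and Dntt, enzymes of developing lymphocytes chosen after their values were seen, were at 11.8 and 14.2 CPM there, against at most 0.813 and 0.0650 CPM elsewhere. The 8 atrial markers summed to 7785 CPM in that mouse, against 145.8 and 203.7 CPM in the other sham vehicle mice. They also summed to 4347 and 3923 CPM in the libraries of MI mouse 3, mostly Nppa, an atrial hormone gene, at 4254 and 3831 CPM, against 97.0 to 334.0 CPM in the other infarcted mice. Scaled by TMM, Myl4, Myl7 and Bmp10 of the same list reached at most 9.15, 0.894 and 0.0352 CPM in any MI mouse. In the sham vehicle group they reached 1259, 734 and 824 CPM. The atrial sum of MI mouse 3 thus rested on Nppa and did not extend to these genes. The part of the lymphocyte and atrial transcripts in the B cell values of sham vehicle mouse 3 was not tested, nor was that of Nppa in MI mouse 3.

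Of the lymphatic vessel and lymph node genes, 1 was called. Ccl21a, a chemokine that draws lymphocytes to lymphatic vessels and that has near-identical copies in the mouse genome, differed between MI and sham vehicle mice by 1.87 ± 0.30 on the log2 scale (SE, adjusted p = 0.0173 in edgeR), in a comparison with 0 calls without sham vehicle mouse 1 or 2. It stood at 34.6 CPM in MI mouse 1 and at 65.9 and 58.3 CPM in MI mouse 3. The MI mouse with the most of this chemokine transcript thus had the lowest B cell score. MI mouse 2, with the least Ccl21a of the MI mice once scaled by TMM, had the middle score, so the order was not inverse throughout. Over the 10 libraries of matched depth Ccl21a had a positive correlation with the score (Pearson r = 0.391, Spearman rho = 0.273).

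**Figure D5:**
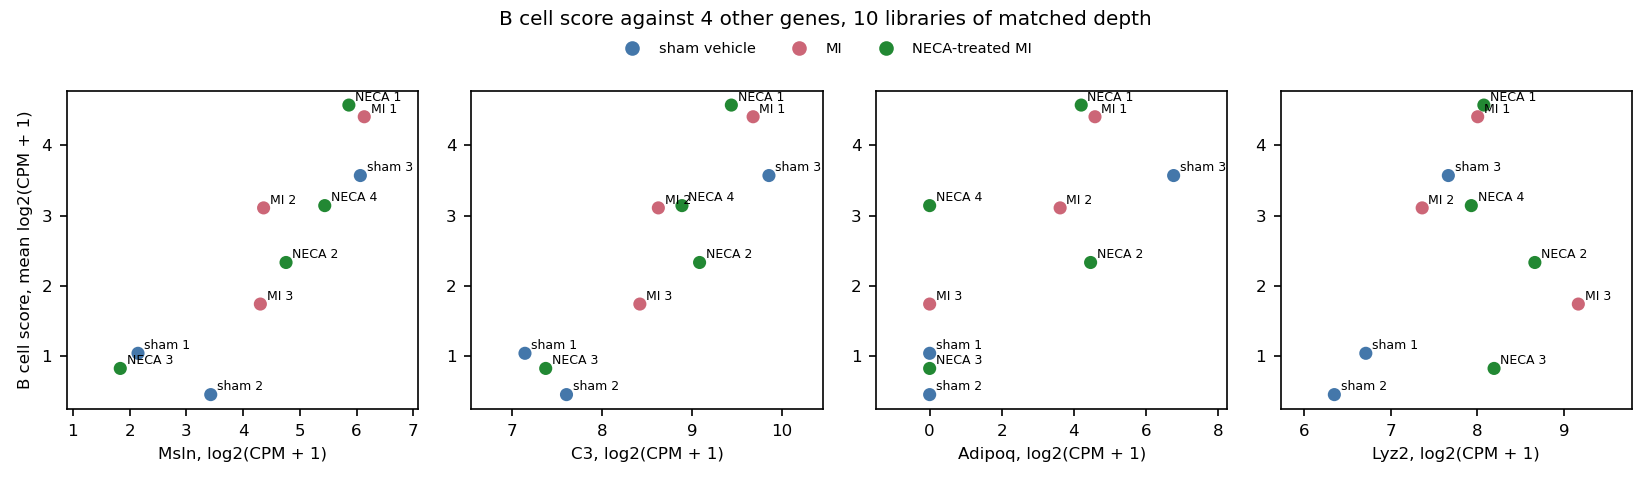
B cell score against the level of Msln, C3, Adipoq and Lyz2 in the 10 libraries of matched depth, each axis as a mean or value of log2(CPM + 1). Points rise together for Msln and C3, less so for Adipoq, and for Lyz2 the highest library, MI mouse 3, has a low score.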

How the data were processed

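Total RNA of heart muscle was made into 12 libraries by a CEL-Seq2 protocol, unpooled, per the labels' protocols. STAR, RSEM, FastQC 0.11.9 and the build GRCm39 are named, per the submitters' processing notes. The authors deposited expected counts from RSEM as whole numbers, and log2(TPM + 1) values. The annotation release, use of strand and of molecular identifiers are not stated in the sources used here. RSEM divides reads among near-identical genes.

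Of 57054 gene rows, 56647 had a value in every library. Symbols came from GENCODE M21 names by Ensembl identifier (52029 rows). That annotation is of another build, so no coordinates were used. The mouse was the replicate, and counts of repeated libraries were summed. The test on counts was that of edgeR 4.0.16, run in R 4.3.3 (filterByExpr, TMM, robust quasi-likelihood test, two-sided, 1 fit of 10 mice, Benjamini-Hochberg adjusted p under 0.05), and the test was checked on simulated data. Pseudocounts on the log2 scale were 1 CPM. Shares have exact Clopper-Pearson 95% intervals.

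The members and gene lists were chosen with earlier results of these data known, so member levels are descriptions. All 9 members are named, with genes called in a list or up to its 4 of highest mean CPM, and the 8 genes most like the score. Alternatives were no filter, no scaling, 2nd libraries alone, a replicate block, DESeq2 1.42.0, limma 3.58.1 on log2(TPM + 1), other pseudocounts and leaving out each mouse.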

Additional observations from a re-analysis of the deposited data

Results flagged for a closer look

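Among the 4 NECA-treated mice, mouse 1 lay far above the others for 2 of the 10 quantities examined, the 9 transcripts and their mean. For Ly6d its 4.81 CPM stood apart by 0.949 of the range of the group, and for Ms4a1 its 12 CPM by 0.836, both past Dixon's 95% critical value for 4 samples. That value is made for normally spread measurements, so its error rate does not hold for tied low counts. Both rest on low counts, with the other mice at 0 to 1.88 CPM for Ms4a1 in their libraries. For Ly6d, mice 2, 3 and 4 had 1 count each against 6 in mouse 1. For Ms4a1 they had 0, 0 and 2 counts against 15. The 10 quantities move together and were chosen with earlier results in view, so no conclusion is drawn from the flags. Groups of 3 mice were not examined in this way.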

How the results depend on the processing

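All 35 alternative values of the score differences and 276 of 282 of the members' fold values moved by less than the pooled SD. Of the 282, 35 had the other sign. The 6 that moved further were without sham vehicle mouse 3, for Ighm, Igkc and Jchain against sham vehicle. Igkc was then at 0 in the remaining sham vehicle mice, so its fitted values there depend on the prior count. Score differences ranged over 0.81 to 2.34 for MI against sham vehicle, -1.11 to 0.23 for NECA-treated MI against MI and 0.41 to 1.93 for NECA-treated MI against sham vehicle when a mouse was left out.

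The number of genes called depended on the settings, and the cause was not tested. In the order MI against sham vehicle, NECA-treated MI against MI and NECA-treated MI against sham vehicle, the counts of 15, 1 and 0 became 7, 0 and 1 with the 2nd libraries alone, 346, 74 and 27 with no filter, 6, 0 and 0 with no scaling, 103, 9 and 4 with DESeq2, and 0, 0 and 0 with limma. Leaving out a mouse gave 0 to 310, 0 to 121 and 0 to 2. A replicate block gave 6, 0 and 1. Same-numbered mice had deviations correlated at -0.248 to 0.199 over 9 pairs, so they share only a number. No member passed the threshold in any setting fitted to it. At matched depth, transcripts under about 3 CPM could not be ordered between mice.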
